A study of Homo sapiens with 12 samples.

Results

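Ferroptosis is a form of cell death in which polyunsaturated phospholipids of cell membranes are oxidised in a chain reaction that iron sustains. The 10 genes described here set the main brakes and accelerators of that process: GPX4, SLC7A11, AIFM2 and GCH1 on the defence side, ACSL4 and LPCAT3 in the supply of oxidisable lipid, and TFRC, NCOA4, FTH1 and FTL in the handling of iron. They were taken by symbol from the 60649 genes of each count table, and all 10 passed the filter on low counts that left 16683 genes for testing. DHODH, the pyrimidine synthesis enzyme that teriflunomide inhibits, is also linked to ferroptosis, since it reduces ubiquinone in the inner mitochondrial membrane.

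The 12 libraries came from spheroids of SBC3, an established human small cell lung cancer line. They fell into 4 groups of 3 libraries: untreated control, teriflunomide alone, lurbinectedin alone, and both drugs. Lurbinectedin is an alkylating drug that binds the DNA minor groove and interferes with transcription. The sources used here give no drug dose or time of exposure, and the labels do not say whether the libraries of a group came from separate cultures, so p-values measure the spread between these libraries, which may be technical. All groups share 1 cell line, and RNA was taken from whole spheroids, so fewer cells of a kind and less RNA per cell cannot be told apart.

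Total counts ranged from 23206414 to 33222162. Genes of the mitochondrial genome took 6.80% ± 0.480 of control counts, 13.2% ± 8.20 of teriflunomide, 15.8% ± 1.81 of lurbinectedin and 17.5% ± 6.45 of combination counts (mean ± SD, n = 3, as for every level below). The libraries labelled teriflunomide replicate 3, at 22.6%, and combination replicate 2, at 24.9%, stood apart from the rest of their groups, and where a call below is gained or lost without them, the value without them is given. The share was higher in every treated library, with either drug or both, than in any control library. Its part in the results was not tested. With mitochondrial genes left out of the fit, the numbers of the 10 genes called were the same in every comparison. Of the markers of small cell lung cancer, NEUROD1 was at 1.34 to 5.75 CPM (counts scaled to a common library size) and SYP at 12.5 to 36.4 CPM, while CHGA, NCAM1 and EPCAM stayed below 1 CPM in every library and INSM1 had no count. YAP1, a marker of the non-neuroendocrine form, lay at 53.5 to 326 CPM. The leukocyte gene PTPRC and the endothelial gene PECAM1 were at most 0.103 and 0.511 CPM, whereas the collagen gene COL1A1 was at 77.6 to 297 CPM.

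Cells take up cystine through the antiporter system xc-, whose transport subunit is SLC7A11, and build glutathione from it. GPX4, a selenoenzyme, spends that glutathione to reduce lipid hydroperoxides. In parallel, AIFM2 (FSP1) regenerates ubiquinol at the plasma membrane and GCH1 starts the synthesis of tetrahydrobiopterin, both of which trap lipid radicals. Ferrous iron feeds the chain reaction: TFRC imports transferrin-bound iron, the FTH1 and FTL subunits of ferritin store it, and NCOA4 delivers ferritin to lysosomes for iron release.

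The mRNAs of ferritin and of the transferrin receptor carry iron-responsive elements, hairpins that the iron regulatory proteins bind when iron is low; binding blocks translation of the ferritin mRNAs and stabilises the TFRC mRNA. They are shown because they are what ties 3 of the 10 genes to a common sensor, and because only the TFRC elements act on the mRNA level that was measured here. A search of GENCODE 29 transcripts (GRCh38, 1 transcript per gene) for a bulged C, a stem of 5 base pairs with G-T pairs allowed, and the loop CAGTGN gave 1 hairpin in the 5′ UTR of each ferritin gene and 4 in the 3′ UTR of TFRC, in its last exon, exon 19. All 6 lie in exons of the count tables. Each line gives 30 bases of the transcribed strand, 5′ to 3′, with T in place of U and with the bulged C and the loop in capitals.
FTH1, chr11:61967573-61967602, minus strand: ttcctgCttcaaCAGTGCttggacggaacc
FTL, chr19:48965335-48965364, plus strand: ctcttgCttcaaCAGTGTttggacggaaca
TFRC, chr3:196050978-196051007, minus strand: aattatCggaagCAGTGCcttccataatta
TFRC, chr3:196050574-196050603, minus strand: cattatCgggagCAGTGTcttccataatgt
TFRC, chr3:196050509-196050538, minus strand: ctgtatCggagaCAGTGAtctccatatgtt
TFRC, chr3:196050462-196050491, minus strand: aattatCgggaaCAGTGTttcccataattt
The same pattern was found in 22 of 18450 genes with a 5′ UTR (0.119%) and in 95 of 18794 genes with a 3′ UTR (0.505%). The match is one of letters, and binding was not measured.

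In untreated spheroids the levels, compared between genes as CPM per kb of exonic length, spanned from ferritin down to the alternative defences. FTL stood highest at 432.5 ± 6.86, followed by FTH1 at 353.4 ± 7.13, TFRC at 73.0 ± 4.19, GPX4 at 47.8 ± 0.297 and NCOA4 at 33.6 ± 1.22. ACSL4 had 11.1 ± 0.541, LPCAT3 7.44 ± 0.423 and GCH1 3.09 ± 0.151 CPM per kb. SLC7A11, at 0.389 ± 0.00747, and AIFM2, at 0.217 ± 0.0715, were the lowest of the 10. No neighbours in this order overlapped between their 3 control libraries. The order depends on the length used, which takes in all annotated exons of a gene: 871 bases for FTL and 2004 for FTH1. In counts FTH1 exceeded FTL, at 1.88 ± 0.0624 FTH1 counts per FTL count in control. Of the exonic bases, 63.22% of FTH1, 65.97% of LPCAT3, 19.2% of AIFM2, 8.97% of SLC7A11 and 1.0% of TFRC are shared with a gene on the other strand. AIFM2 rested on 22, 44 and 38 reads and SLC7A11 on 114, 110 and 126 reads in control, which limits both.

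**Figure D1:**
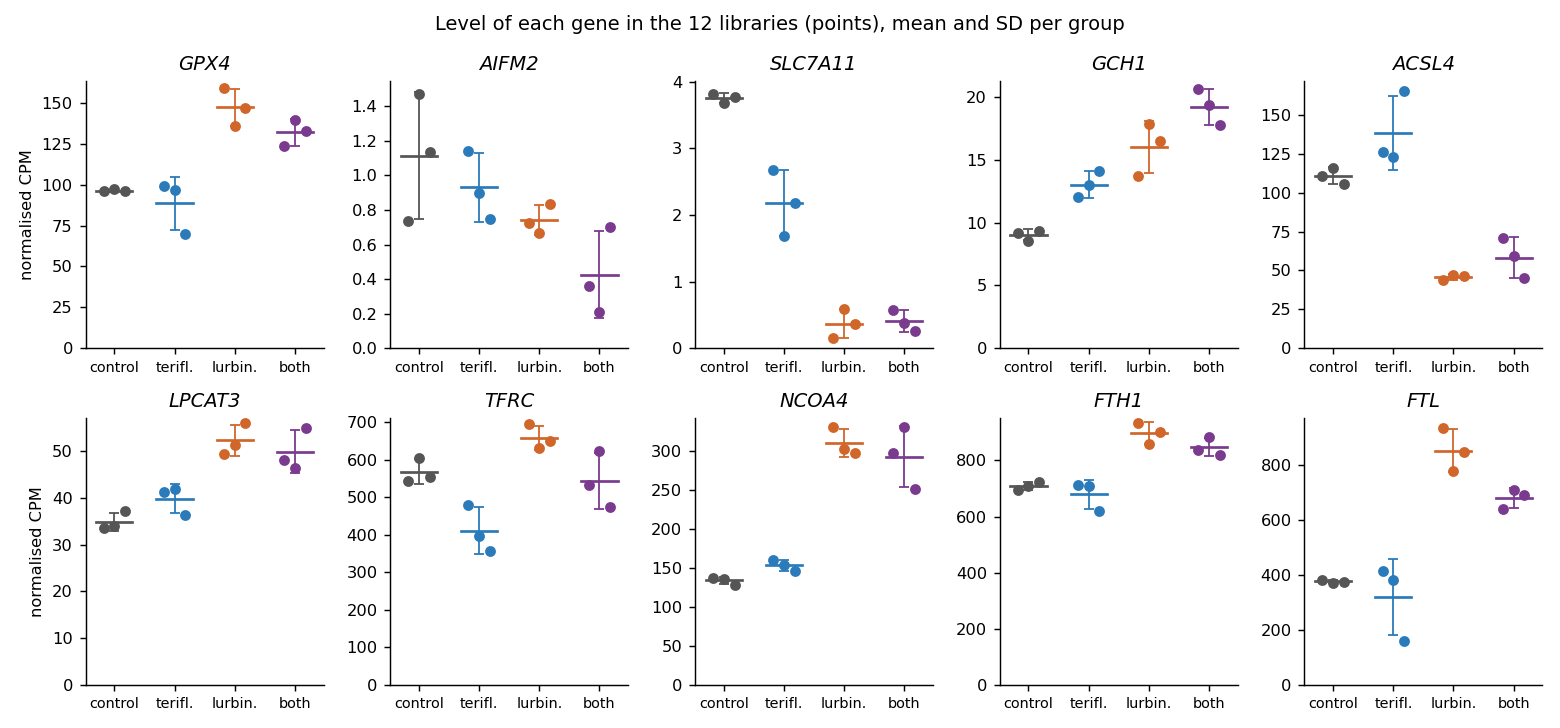
Normalised CPM of each of the 10 genes in the 12 libraries, on linear axes from 0, by treatment group (control, teriflunomide, lurbinectedin, both drugs); points are libraries, horizontal lines group means and whiskers the SD. SLC7A11 and ACSL4 sit lower, and NCOA4, FTL and GCH1 higher, in all 6 libraries with lurbinectedin than in the 3 control libraries.

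Calls below are at a Benjamini-Hochberg adjusted p under 0.05 over all 16683 genes in edgeR's quasi-likelihood test, and log2 fold changes carry their standard error (SE). A list gene that is said to rise or fall passed that threshold, and coordinates are those of GRCh38. With lurbinectedin alone, 6 of the 10 genes rose (GPX4, LPCAT3, FTH1, FTL, NCOA4 and GCH1) and 2 fell (SLC7A11 and ACSL4). Over all genes tested, 36.0% were called higher and 35.7% lower in that comparison. With both drugs 6 rose and 3 fell, AIFM2 being the third, where 34.1% of all genes were higher and 34.4% lower. Under library size alone in place of TMM scaling, the 10 genes split into 3 higher and 2 lower with lurbinectedin and into 2 higher and 3 lower with both drugs. Teriflunomide alone moved 2 of the 10: GCH1 rose and TFRC fell, with 3.88% of all genes higher and 2.13% lower. The median log2 fold change over the 10 genes was 0.46 with lurbinectedin and 0.36 with both drugs, beside 0.05 and 0.04 over all genes. The same change of scaling moved the all-gene median to −0.18 with lurbinectedin and −0.13 with both drugs, and the share of higher among called genes from 50.2% to 39.2% and from 49.8% to 41.0%. The comparisons with control share their 3 control libraries.

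**Figure D2:**
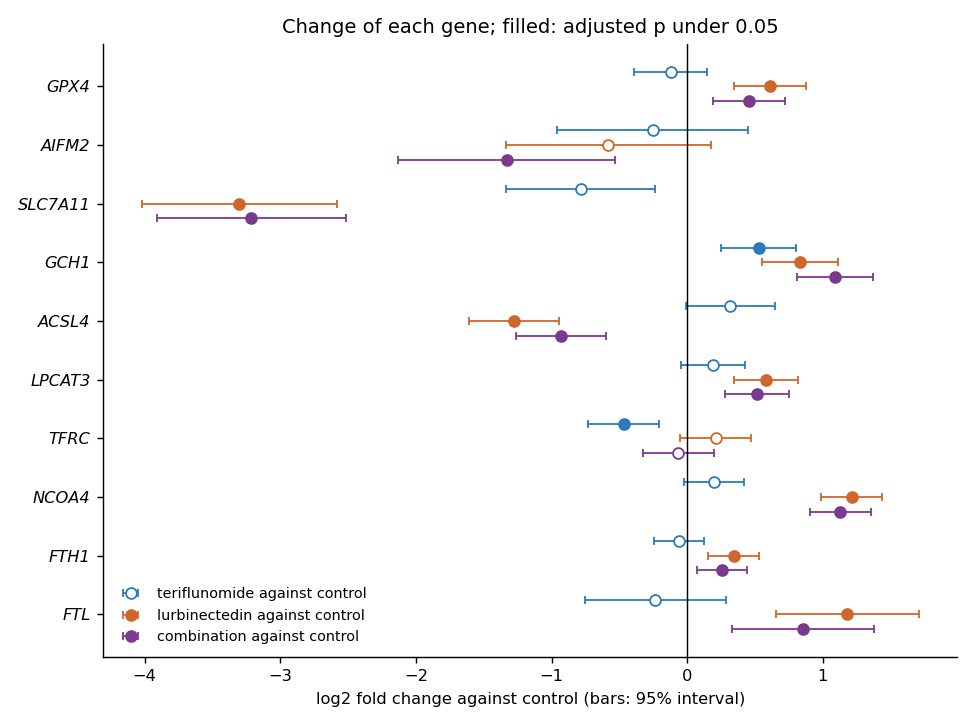
Log2 fold changes against control of the 10 genes for teriflunomide, lurbinectedin and the combination, with 95% confidence intervals from edgeR; filled points passed an adjusted p of 0.05. The widest fall is that of SLC7A11, at −3.30 with lurbinectedin and −3.21 with both drugs.

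SLC7A11, at the cystine supply of the glutathione defence, fell with lurbinectedin, and GPX4, which spends the glutathione, rose. SLC7A11 (ENSG00000151012.13, chr4:138164097-138242349, minus strand) was at 3.82, 3.68 and 3.76 CPM in the control libraries, at 2.67, 1.68 and 2.18 under teriflunomide, at 0.145, 0.586 and 0.364 under lurbinectedin and at 0.579, 0.379 and 0.255 with both drugs. Every treated library lay below every control library, and those with lurbinectedin lay below those with teriflunomide alone. The transporter fell to 0.101 of control with lurbinectedin (log2 fold change −3.30, SE 0.334, adjusted p 7.91e-07) and to 0.108 of control with both drugs (−3.21, SE 0.324, adjusted p 9.49e-07). The lurbinectedin value rests on 3, 15 and 10 reads and the combination value on 16, 9 and 8 reads. With teriflunomide alone the ratio to control was 0.580 (95% interval 0.396 to 0.849), which was not called at an adjusted p of 0.083. That call depended on the processing: the adjusted p was 0.0168 with no filter on low counts, 0.0264 in DESeq2 and 0.0219 without teriflunomide replicate 3 and combination replicate 2.

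GPX4 (ENSG00000167468.18, chr19:1103926-1106791, plus strand) was at 96.0, 97.2 and 96.3 CPM in control, at 99.3, 96.6 and 70.0 under teriflunomide, at 159.1, 136.1 and 147.2 under lurbinectedin and at 123.6, 139.8 and 133.1 with both drugs. All 6 libraries with lurbinectedin were above all others. The rise was 1.53-fold with lurbinectedin (0.61, SE 0.124, adjusted p 0.000534) and 1.37-fold with both drugs (adjusted p 0.00501). Scaled by library size alone, these were 0.38 (adjusted p 0.077) and 0.28 (adjusted p 0.18) and were no longer called. The low teriflunomide value came from replicate 3, the library with a mitochondrial share of 22.6%; the log2 difference was −0.12 with it and 0.02 without it.

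Around this pair, 16 genes of glutathione and selenoprotein supply were listed and all 16 were tested. Lurbinectedin left 8 higher and 5 lower, and both drugs left 5 higher and 5 lower; none was called with teriflunomide. The shares over all genes, 36.0% higher and 35.7% lower with lurbinectedin and 34.1% and 34.4% with both drugs, stand beside these and the following list counts. For teriflunomide the shares were 3.88% higher and 2.13% lower. EEFSEC, the elongation factor that delivers selenocysteine to the ribosome, fell from 17.8 ± 0.356 to 1.19 ± 0.120 CPM with lurbinectedin (−3.91) and to 1.10 ± 0.210 CPM with both drugs (−4.00). TRIT1, a tRNA-modifying enzyme that acts on the selenocysteine tRNA, fell by 0.68 and 0.91 on the log2 scale, and GSR, the glutathione reductase, by 0.84 and 0.80. The partners of SLC7A11 and of glutathione synthesis that follow were chosen after their values were seen. SLC3A2, the heavy chain of system xc-, went from 79.4 ± 3.60 to 227.3 ± 18.2 CPM with lurbinectedin (1.52, SE 0.248, adjusted p 8.37e-05) while the light chain SLC7A11 fell. GCLM, the modifier subunit of the enzyme that begins glutathione synthesis, rose from 35.4 ± 2.23 to 76.1 ± 1.45 CPM (1.10, adjusted p 4.92e-05). With teriflunomide the 3 listed genes with the smallest p were CHAC1, which degrades glutathione (0.95, adjusted p 0.0522), CBS of the transsulfuration route (−0.72, adjusted p 0.0603) and SLC3A2 (−0.69, adjusted p 0.11). Once teriflunomide replicate 3 was left out, all 3 were called, CHAC1 at 1.22 (adjusted p 0.000817), CBS at −0.45 (adjusted p 0.0161) and SLC3A2 at −0.36 (adjusted p 0.0165). DESeq2 also called CHAC1 (adjusted p 0.017) and CBS (adjusted p 0.0168), and all 3 were called with no filter on low counts.

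AIFM2 and GCH1, which act without GPX4, also went apart. AIFM2 (ENSG00000042286.15, chr10:70098223-70132934, minus strand) had few reads: its counts were 22, 44 and 38 in control, 39, 30 and 22 under teriflunomide, 15, 17 and 23 under lurbinectedin and 10, 5 and 22 with both drugs. At these depths the control and teriflunomide libraries overlapped, as did those of lurbinectedin and control. Only the combination was called against control, at 0.397 of its level (−1.33, SE 0.372, adjusted p 0.00572), and the value ranged from −1.92 to −1.05 when 1 library at a time was left out. Lurbinectedin alone gave −0.58 (adjusted p 0.151), which passed when only those 2 groups were fitted (adjusted p 0.0487). The difference between combination and lurbinectedin was −0.75 (adjusted p 0.379).

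The promoter of AIFM2 is shown because NRF2, encoded by NFE2L2, is known to act on genes of the antioxidant defence through the motif TGACNNNGC. That motif was searched on both strands of the 250 bases before the start site in RefSeq promoters (GRCh38.p14), which held 7 of the 10 genes. AIFM2 alone of the 7 held it, 22 to 14 bases before the RefSeq start, on the strand opposite to the gene. The count tables place the start of AIFM2 further upstream, at 70132934, so the motif lies within the gene span given above. It is in capitals in the 60 bases below.
AIFM2, chr10:70132826-70132885, minus strand: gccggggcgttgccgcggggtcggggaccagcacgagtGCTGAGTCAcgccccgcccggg
The motif occurs in 11.0% of 27305 promoters of that length, and here it overlaps an AP-1 motif, TGANTCA with N being C or G. The motif TGATGNAA, through which ATF4 acts on amino acid response genes, was in none of the 7 and in 3.19% of all promoters. SLC7A11, FTH1 and GCH1 were not searched.

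GCH1 (ENSG00000131979.20, chr14:54842008-54902826, minus strand), at 9.22, 8.53 and 9.35 CPM in control, was at 12.02, 13.0 and 14.1 under teriflunomide, at 13.8, 17.9 and 16.5 under lurbinectedin and at 20.6, 19.4 and 17.8 with both drugs. No control library reached the lowest treated one. It rose 1.44-fold with teriflunomide (0.53, SE 0.129, adjusted p 0.0305), 1.78-fold with lurbinectedin (0.83, SE 0.130, adjusted p 5.27e-05) and 2.13-fold with both drugs (1.09, SE 0.129, adjusted p 4.31e-06). The teriflunomide call was lost when any 1 control library was left out, with adjusted p from 0.109 to 0.134, while the log2 value stayed between 0.47 and 0.59 over all libraries left out. Under library size alone it was 0.44 (adjusted p 0.176). It was also lost without teriflunomide replicate 2 (0.0649) or lurbinectedin replicate 3 (0.0553), with no filter (0.0636), with only those groups fitted (0.0714) and under the replicate block (0.0762).

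The other genes of the pterin route were chosen after their values were seen. PTS and SPR, which follow GCH1 in tetrahydrobiopterin synthesis, rose with lurbinectedin by 0.53 (adjusted p 0.001) and 0.84 (adjusted p 1.21e-05) on the log2 scale. GCHFR, the feedback regulator of GCH1, rose from 5.09 ± 0.0983 to 10.6 ± 0.248 CPM (1.06, adjusted p 0.00036). With both drugs the values were 0.43, 0.46 and 0.92, all called. Under library size alone PTS was no longer called in either comparison and SPR not with both drugs, and with no filter PTS was not called with both drugs (adjusted p 0.0743).

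Of 22 genes for quinol, sterol and pterin antioxidants, all 22 were tested, and lurbinectedin left 8 higher and 10 lower, both drugs 7 and 11, teriflunomide 1 and 1. PDSS2, a subunit of the synthase that makes the ubiquinone tail, fell from 10.9 ± 0.763 to 0.245 ± 0.136 CPM with lurbinectedin (−5.39) and to 0.243 ± 0.0172 CPM with both drugs (−5.47). VKORC1L1, which reduces vitamin K, fell by 1.81 and 1.76 on the log2 scale, and MBOAT1, a phospholipid acyltransferase, by 3.44 and 2.99.

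DHODH itself was lower with its inhibitor: 18.4 ± 0.721 CPM in control and 12.7 ± 0.634 with teriflunomide (−0.54, SE 0.118, adjusted p 0.0186). That call was lost without any 1 control library (adjusted p 0.0671 to 0.104), under the replicate block (0.0568) and under library size alone (0.0683). It was higher with lurbinectedin at 24.9 ± 1.81 CPM (0.43, adjusted p 0.00435), a call lost under library size alone (0.20, adjusted p 0.281) and with no filter (adjusted p 0.0791), and not called with both drugs at 18.9 ± 2.10 CPM (0.04, adjusted p 0.801), where the sign turned under library size alone (−0.14). SC5D, which makes the radical-trapping sterol precursor 7-dehydrocholesterol, was the only gene of the list called higher with teriflunomide, from 88.0 ± 3.90 to 150.9 ± 32.3 CPM (0.78, adjusted p 0.0155). The SC5D call was lost without any 1 control library (adjusted p 0.0592 to 0.0888) and with only those groups fitted (0.0572). PDSS1 gave −0.40 (adjusted p 0.0613) and was called in DESeq2 (adjusted p 0.0073), without teriflunomide replicate 3 (0.0215) and without combination replicate 2 (0.0314). Without both of these libraries it was −0.45 (adjusted p 0.0029).

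ACSL4 and LPCAT3 place polyunsaturated fatty acids into phospholipids, ACSL4 by activating them and LPCAT3 by attaching them. ACSL4 (ENSG00000068366.21, chrX:109624244-109733403, minus strand) was at 111.0, 116.2 and 105.5 CPM in control, at 126.0, 123.1 and 165.8 under teriflunomide, at 43.9, 46.8 and 46.7 under lurbinectedin and at 70.8, 59.1 and 44.9 with both drugs. The groups with lurbinectedin lay wholly below control and the teriflunomide group wholly above it. The fall was to 0.413 of control with lurbinectedin (−1.28, SE 0.155, adjusted p 5.03e-06) and to 0.525 with both drugs (−0.93, SE 0.154, adjusted p 0.000105). Teriflunomide gave 0.32 (SE 0.152, adjusted p 0.211), which was not called. The largest teriflunomide value was that of replicate 3; over the libraries left out in turn the value ran from 0.17 to 0.40.

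Set against GPX4 in the same library, ACSL4 had 1.15 ± 0.0508 counts per GPX4 count in control, 0.312 ± 0.0345 with lurbinectedin and 0.444 ± 0.119 with both drugs. The teriflunomide libraries had 1.27, 1.27 and 2.37, the last being replicate 3. This ratio is free of library scaling, and its lurbinectedin and combination libraries did not overlap with control.

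**Figure D3:**
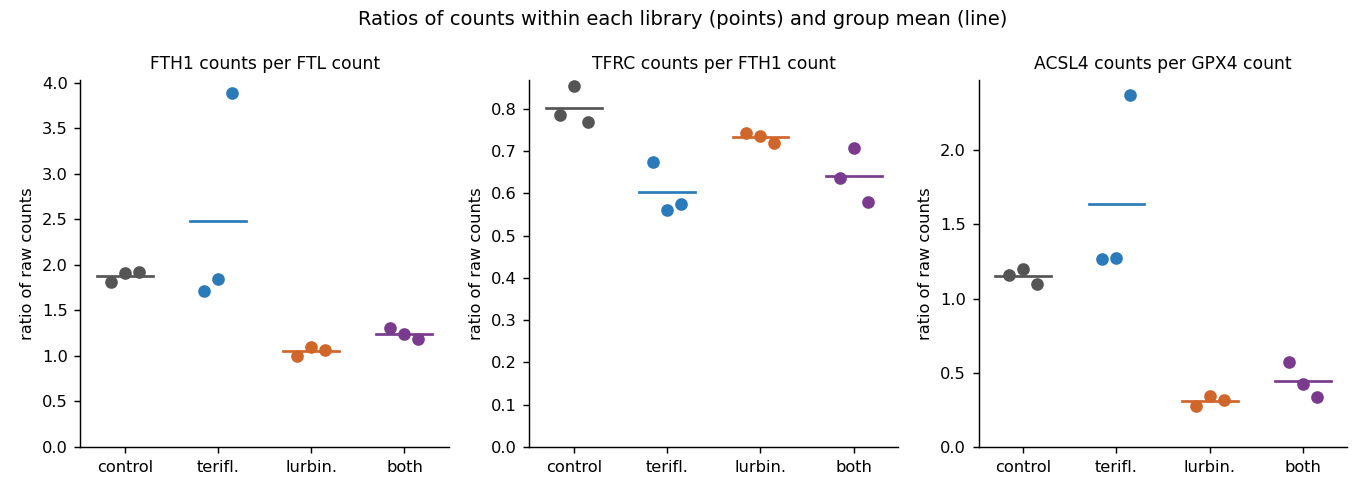
Ratios of counts within each library for FTH1 over FTL, TFRC over FTH1 and ACSL4 over GPX4, by treatment group, with points for libraries and lines for group means. Teriflunomide replicate 3 lies apart at 3.89 for the ferritin ratio and 2.37 for ACSL4 over GPX4.

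LPCAT3 (ENSG00000111684.11, chr12:6976185-7018477, minus strand) was at 33.6, 34.0 and 37.2 CPM in control, 41.3, 41.9 and 36.4 under teriflunomide, 49.5, 51.5 and 56.1 under lurbinectedin and 48.3, 46.4 and 55.1 with both drugs. The libraries with lurbinectedin all exceeded the rest. Against control LPCAT3 rose by 0.58 on the log2 scale with lurbinectedin (SE 0.110, adjusted p 0.000275) and by 0.52 with both drugs (adjusted p 0.000836). Under library size alone these were 0.35 (adjusted p 0.0961) and 0.36 (adjusted p 0.0945). In the annotation, 3096 of the 4693 exonic bases of LPCAT3 (65.97%) are shared with EMG1 on the opposite strand, and use of strand in counting is not given in the sources used here. EMG1 had 92.6% to 189% of the counts of LPCAT3 and was itself called higher with lurbinectedin (0.57, adjusted p 0.00719). Its log2 values were −0.245 with teriflunomide and 0.151 with both drugs, beside 0.192 and 0.516 for LPCAT3. With the sources used here, reads of the bases they share cannot be assigned to 1 of the pair.

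Among 20 listed genes for polyunsaturated and ether lipids, 14 were tested, and 3 were higher and 10 lower with lurbinectedin, 2 and 10 with both drugs, and none called with teriflunomide. Over all genes 36.0% were higher and 35.7% lower with lurbinectedin, and 34.1% and 34.4% with both drugs. ALOXE3, among those higher with both drugs, was at 0.041 CPM in control and 0.586 CPM with both drugs. It passed the filter through libraries with lurbinectedin and could only count as higher. FDX2, GLS2 and COQ8A, called higher with both drugs in other lists, were also low in control, at 0.104, 0.084 and 0.333 CPM. The list medians were −0.60 and −0.68 on the log2 scale, beside 0.05 and 0.04 over all genes. AGPS, which makes the ether bond of plasmalogen precursors, fell from 137.7 ± 10.1 to 24.8 ± 2.68 CPM with lurbinectedin (−2.47) and to 33.4 ± 8.74 CPM with both drugs (−2.05). ACSL1, another fatty acid activating enzyme, fell by 1.40 and 1.23. SCD, which makes the monounsaturated fatty acids that protect membranes, fell with both drugs from 1281 ± 41.2 to 736.1 ± 39.2 CPM (−0.80, adjusted p 1.59e-06). CYB5R1, an oxidoreductase linked to lipid peroxidation, rose by 1.59 and 1.38. SCD, PEBP1 and ACSL3 had the smallest p with teriflunomide, at −0.20, −0.30 and 0.32, with adjusted p from 0.172 to 0.221.

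With lurbinectedin both ferritin genes and the ferritin receptor NCOA4 rose, and the importer TFRC was not called. FTL (ENSG00000087086.15, chr19:48965309-48966879, plus strand) was at 383.4, 371.7 and 375.1 CPM in control, 416.2, 383.3 and 159.5 under teriflunomide, 934.8, 778.3 and 848.8 under lurbinectedin and 639.7, 710.8 and 693.0 with both drugs. The 6 libraries with lurbinectedin lay above the other 6, and those with both drugs lay between lurbinectedin and control. FTL rose 2.27-fold with lurbinectedin (1.18, SE 0.245, adjusted p 0.000631) and 1.81-fold with both drugs (0.85, SE 0.243, adjusted p 0.00651); under library size alone the latter was 0.68 (adjusted p 0.0625). Teriflunomide replicate 3 was the low library of its group, and the log2 difference between teriflunomide and control was −0.24 with it and 0.08 without it, not called in either case.

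FTH1 (ENSG00000167996.16, chr11:61959718-61967634, minus strand), the ferroxidase subunit, was at 693.5, 709.2 and 722.0 CPM in control, 711.1, 708.5 and 620.5 under teriflunomide, 934.4, 857.7 and 901.3 under lurbinectedin and 836.9, 882.1 and 820.9 with both drugs. Its rise was smaller, 1.27-fold with lurbinectedin (0.34, SE 0.0866, adjusted p 0.00276) and 1.20-fold with both drugs (0.26, adjusted p 0.0168), although the libraries with lurbinectedin did not overlap with control. Scaling by library size alone gave 0.11 (adjusted p 0.476) and 0.09 (adjusted p 0.578), and no filter on low counts gave 0.27 (adjusted p 0.0755) and 0.20 (adjusted p 0.235). The combination call was also lost without control replicate 1 (adjusted p 0.0721), control replicate 2 (0.0552) or combination replicate 2 (0.053). The counts of FTH1 per FTL count, which carry no library scaling, went from 1.88 ± 0.0624 in control to 1.05 ± 0.0516 with lurbinectedin and 1.25 ± 0.0620 with both drugs, with no overlap. They were 1.71, 1.85 and 3.89 with teriflunomide.

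Both ferritin genes have near-identical processed copies, 25 annotated rows for FTH1 and 16 for FTL. These held 0.269% to 0.804% and 0.127% to 0.288% of the parent's counts, and the treatment of reads that map to several places is not given in the sources used here. BEST1, which shares 1267 of the 2004 exonic bases of FTH1 on the other strand, had 0.375% to 0.846% of its counts.

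NCOA4 (ENSG00000266412.6, chr10:46005088-46030623, minus strand), the receptor for ferritin in lysosomal degradation, was at 137.0, 136.1 and 128.2 CPM in control, 160.1, 154.2 and 146.1 under teriflunomide, 330.9, 302.5 and 296.8 under lurbinectedin and 296.9, 330.1 and 251.4 with both drugs. Every library with lurbinectedin exceeded every one without it. NCOA4 rose 2.32-fold with lurbinectedin (1.21, SE 0.105, adjusted p 1.53e-07) and 2.19-fold with both drugs (1.13, SE 0.104, adjusted p 3.78e-07). Teriflunomide libraries were all above control, but 0.20 on the log2 scale was not called (adjusted p 0.251). It was called without teriflunomide replicate 3 and combination replicate 2 (0.23, adjusted p 0.044).

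TFRC (ENSG00000072274.13, chr3:196027183-196082096, minus strand), the importer, was at 544.7, 605.9 and 555.6 CPM in control, 478.9, 397.5 and 356.9 under teriflunomide, 695.1, 631.2 and 649.4 under lurbinectedin and 533.2, 624.0 and 475.2 with both drugs. The teriflunomide libraries were below and the lurbinectedin libraries above all control libraries, and the combination overlapped with control. TFRC fell to 0.723 of control with teriflunomide (−0.47, SE 0.122, adjusted p 0.0402). This call was lost without any 1 control library (adjusted p 0.111 to 0.158), without teriflunomide replicate 2 (0.092), without any 1 lurbinectedin library (0.0628 to 0.0698), without combination replicate 1 (0.0601) under library size alone (−0.54, adjusted p 0.0793), with only those groups fitted (0.0889) and under the replicate block (0.0604), while the log2 value stayed between −0.59 and −0.38 over the libraries left out. Lurbinectedin gave 0.21 (adjusted p 0.134; 0.0018 when only those 2 groups were fitted and 0.0166 without teriflunomide replicate 3 and combination replicate 2), with the sign turned under library size alone (−0.02), and both drugs gave −0.06 (adjusted p 0.657). Per FTH1 count, TFRC had 0.803 ± 0.0451 counts in control, 0.603 ± 0.0613 with teriflunomide, 0.733 ± 0.0119 with lurbinectedin and 0.641 ± 0.0644 with both drugs.

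In the iron uptake, export and sensing list, 14 of 20 genes were tested; 3 were higher and 8 lower with lurbinectedin, 1 and 9 with both drugs, and 1 and 1 with teriflunomide. SLC11A2 (DMT1), the transporter that moves iron out of the endosome after TFRC has brought it in, fell from 81.8 ± 0.592 to 17.4 ± 0.377 CPM with lurbinectedin (−2.23) and to 18.8 ± 2.07 CPM with both drugs (−2.12). HERC2, a ubiquitin ligase known to degrade NCOA4, fell by 2.42 and 2.28, and HFE, a partner of TFRC, by 1.60 and 1.42. With teriflunomide CYBRD1, a ferric reductase, rose from 21.5 ± 0.581 to 31.5 ± 2.10 CPM (0.55, adjusted p 0.0324), and PCBP2, a cytosolic iron chaperone, fell from 388.3 ± 5.35 to 310.0 ± 29.2 CPM (−0.33, adjusted p 0.0422). Neither call held without any 1 control library (adjusted p 0.116 to 0.142 for CYBRD1 and 0.14 to 0.155 for PCBP2), under library size alone (0.234 and 0.169) or under the replicate block (0.0767 and 0.0803). PCBP2 was also lost without any 1 lurbinectedin library (0.0691 to 0.077), without combination replicate 1 (0.0591), with no filter (0.0878) and with only those groups fitted (0.1), CYBRD1 without lurbinectedin replicate 3 (0.0554), and both without teriflunomide replicate 2 (0.0675 and 0.0517). HERC2 gave −0.37 (adjusted p 0.101) and was called in DESeq2 (0.0485) and without combination replicate 2 (0.0466). It was also called without teriflunomide replicate 3 and combination replicate 2 together (−0.36, adjusted p 0.00788).

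The proteins that read the hairpins shown above are encoded by ACO1 and IREB2, chosen after their values were seen. ACO1 (IRP1) fell from 68.9 ± 1.96 to 30.5 ± 1.93 CPM with lurbinectedin (−1.18, SE 0.153, adjusted p 9.51e-06) and to 31.4 ± 7.60 CPM with both drugs. IREB2 (IRP2) fell from 146.7 ± 4.61 to 90.7 ± 5.36 CPM (−0.69, SE 0.0972, adjusted p 1.88e-05) and to 98.9 ± 8.29 CPM. FBXL5, the iron-sensing ligase subunit that marks IREB2 for degradation, fell by 0.44 and 0.40 on the log2 scale, and HMOX1, which frees iron from haem, rose from 6.01 ± 0.143 to 18.5 ± 2.39 CPM with lurbinectedin (1.62, adjusted p 1.1e-05). These were likewise chosen after their values were seen, and protein levels, iron and binding were not measured.

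All 20 genes of mitochondrial iron and iron-sulfur cluster assembly were tested. Lurbinectedin left 5 higher and 10 lower, as did both drugs, and teriflunomide 2 higher and none lower. Over all genes, teriflunomide left 3.88% higher and 2.13% lower. FDXR, the ferredoxin reductase of that assembly, rose from 13.0 ± 1.40 to 326.2 ± 17.4 CPM with lurbinectedin (4.65), to 274.2 ± 29.2 CPM with both drugs (4.40) and to 22.6 ± 5.11 CPM with teriflunomide (0.81, adjusted p 0.0101). ISCU, the assembly scaffold, rose from 54.7 ± 2.23 to 224.0 ± 9.24 CPM with lurbinectedin (2.03), to 218.5 ± 28.5 CPM with both drugs and to 73.3 ± 9.37 CPM with teriflunomide (0.42, adjusted p 0.0462). The teriflunomide call of ISCU was lost without any 1 control library (adjusted p 0.138 to 0.166), any 1 lurbinectedin library (0.0747 to 0.0767), teriflunomide replicate 2 (0.0654) or 3 (0.0536) or combination replicate 1 (0.0549), and under library size alone (0.0971), no filter (0.0578), the replicate block (0.092) or only those groups (0.1). That of FDXR was lost without control replicate 2 (0.0627), under library size alone (0.0994) and with only those groups (0.088). LYRM4, a subunit of the desulfurase complex that loads that scaffold, fell from 26.2 ± 0.973 to 4.45 ± 0.325 CPM with lurbinectedin (−2.56) and 4.23 ± 0.672 CPM with both drugs (−2.62). NFU1, a later carrier, gave 0.60 with teriflunomide (adjusted p 0.0643), and 0.30 without teriflunomide replicate 3. It was called in DESeq2 (adjusted p 0.0249), with no filter (0.0098), without teriflunomide replicate 1 (0.0424) or 2 (0.0385) and without teriflunomide replicate 3 and combination replicate 2 together (0.0263).

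Of 16 transcription factors and stress response genes that are known to touch these 10 genes, 15 were tested, with 10 higher and 2 lower with lurbinectedin and with both drugs, and 4 higher with teriflunomide. Over all genes 36.0% were higher with lurbinectedin, 34.1% with both drugs and 3.88% with teriflunomide. This list, like the others, was chosen with earlier results of these data known, so its counts are a description and no test. GLS2, among those higher with both drugs, was at 0.084 CPM in control and could hardly be called lower. ATF3, a repressor of SLC7A11, rose from 2.82 ± 0.229 CPM to 160.6 ± 13.8 with lurbinectedin (5.83), 138.0 ± 19.2 with both drugs (5.61) and 4.86 ± 0.562 with teriflunomide (0.79, adjusted p 0.00832); the teriflunomide call was lost without control replicate 3 (adjusted p 0.0618) and with only those groups fitted (0.0579). SAT1, a polyamine-degrading enzyme tied to lipid peroxidation, rose by 3.05, 3.20 and 0.94 in that order (adjusted p 0.00156 for teriflunomide), and CDKN1A by 4.76 with lurbinectedin and 4.65 with both drugs. MDM2 rose with teriflunomide from 262.1 ± 16.8 to 499.6 ± 59.1 CPM (0.93, adjusted p 0.00211).

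The transcripts of NFE2L2 and ATF4 themselves changed by less than 1 on the log2 scale. NFE2L2 was at 0.34 (adjusted p 0.0907), 0.10 (adjusted p 0.438; −0.13 under library size alone) and 0.32 (adjusted p 0.0212) for teriflunomide, lurbinectedin and both drugs. ATF4, an activator of SLC7A11, was at −0.34 (adjusted p 0.116) with teriflunomide and rose by 0.34 (adjusted p 0.0226) with lurbinectedin and 0.32 (adjusted p 0.0308) with both drugs. Both ATF4 calls were lost under library size alone (0.11, adjusted p 0.605, and 0.15, adjusted p 0.474), with no filter (adjusted p 0.093 and 0.105) and without control replicate 1 or 2 (0.0633 to 0.0938). The lurbinectedin call was also lost without lurbinectedin replicate 1 (0.0931) or 3 (0.0718), and the combination call without control replicate 3 (0.0612), lurbinectedin replicate 3 (0.0525) or combination replicate 2 (0.121) or 3 (0.0588). The combination call of NFE2L2 was lost under library size alone (0.16, adjusted p 0.331), with no filter (0.187), without any 1 control library (0.0541 to 0.0806) and without combination replicate 1 (0.086), and DESeq2 called NFE2L2 with teriflunomide (0.0341).

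**Figure D4:**
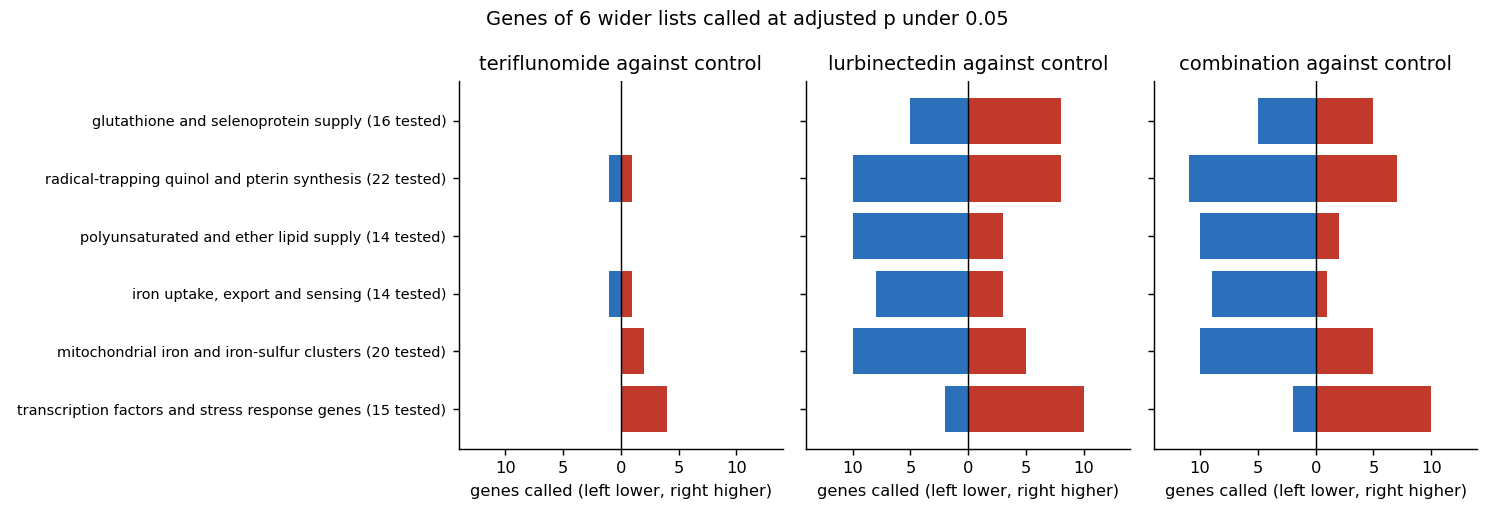
Number of genes in each of the 6 pathway lists called lower (blue, left of 0) and higher (red, right of 0) at an adjusted p under 0.05 against control, in 1 panel per treatment. The lists were chosen with earlier results of these data known. In the lipid list 10 of 14 tested genes were lower with lurbinectedin, and in the list of transcription factors and stress response genes 10 of 15 were higher, beside 35.7% lower and 36.0% higher over all genes; the mitochondrial iron list had 5 higher and 10 lower of 20.

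Genomic span moved with the response to lurbinectedin across the genome, and the 10 genes differ widely in it. Nuclear genes of up to 10 kb, the class of FTL, GPX4 and FTH1 (1.6, 2.9 and 7.9 kb), had a median log2 fold change of 0.67 over 4968 genes, with 52.8% higher and 12.4% lower. In the class of 10 to 50 kb, with NCOA4 (25.5 kb), AIFM2 (34.7 kb) and LPCAT3 (42.3 kb), the median was 0.27 over 6451 genes, with 44.3% higher and 22.6% lower. From 50 to 110 kb, where TFRC (54.9 kb), GCH1 (60.8 kb), SLC7A11 (78.3 kb) and ACSL4 (109.2 kb) lie, it was −0.72 over 2808 genes, with 13.6% higher and 63.1% lower. The corresponding medians with both drugs were 0.55, 0.24 and −0.58. GCH1, at 0.83, was thus among the 13.6% of its class that rose, and the rise of GPX4 (0.61) and FTH1 (0.34) lay below the median of theirs. Genes of more than 110 kb were in none of these classes, and the list genes were not placed in them. The part of span in the changes of the 10 genes, of the list genes and of the list medians was not tested.

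**Figure D5:**
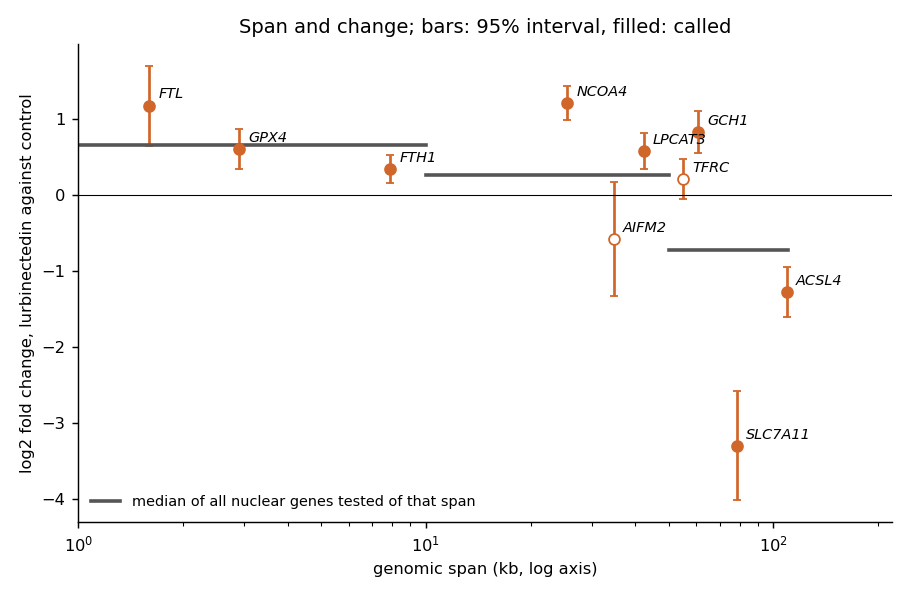
Log2 fold change with lurbinectedin against genomic span (kb, log axis) for the 10 genes, with whiskers for the 95% interval, filled points for calls and grey lines for the median of all nuclear genes in each span class. SLC7A11 lies at −3.30 in a class with a median of −0.72, and NCOA4 at 1.21 in a class with a median of 0.27.

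The combination was also set against lurbinectedin alone. None of the 10 genes was called in edgeR in that comparison, where 0.00% of all genes were called, and none in DESeq2, which called 584 genes in all. At an unadjusted p under 0.05 stood 2599 genes, 2 of them among the 10: ACSL4 at 0.35 (95% interval 0.02 to 0.68, p 0.0411) and TFRC at −0.28 (95% interval −0.54 to −0.01, p 0.0412), each with an adjusted p of 0.302. The interval for SLC7A11 ran from −0.86 to 1.03 around 0.09, and that for GPX4 from −0.42 to 0.11 around −0.16, so differences of these sizes could not be resolved. FTL libraries with both drugs all lay below those with lurbinectedin (−0.33, adjusted p 0.535). FTL was called once teriflunomide replicate 3 was left out of the fit, in which the 4 groups share 1 estimate of spread (−0.32, adjusted p 0.0158). With combination replicate 2 also left out, FTL (−0.36, adjusted p 0.00259) and TFRC (−0.38, adjusted p 0.00286) were called.

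No gene of the 6 lists was called in this comparison in the reported fit. The number was 13 without teriflunomide replicate 3, 26 with combination replicate 2 left out as well, and 4 in DESeq2. Over all genes, those fits called 2067 of 17072, 3640 of 16945 and 584 of 16683, in that order. Among the list genes with the smallest p were PRDX6, a peroxiredoxin (−0.34, adjusted p 0.19), SPR (−0.38, adjusted p 0.17), SCD (−0.31, adjusted p 0.154), CYBRD1 (0.40, adjusted p 0.219) and YAP1 (0.58, adjusted p 0.151). DHODH was at −0.40 (adjusted p 0.172), where teriflunomide against control had given −0.54. Without teriflunomide replicate 3 all 6 of these genes were called, with adjusted p 0.00807 (PRDX6), 0.0107 (SPR), 0.0138 (SCD), 0.0403 (CYBRD1), 0.0181 (YAP1) and 0.0226 (DHODH). SPR (0.0321), SCD (0.0141), YAP1 (0.0246) and DHODH (0.0316) were those called in DESeq2.

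Against teriflunomide alone, the combination had all 10 genes called: GPX4, LPCAT3, FTH1, FTL, TFRC, NCOA4 and GCH1 higher, AIFM2, SLC7A11 and ACSL4 lower, beside 35.2% of all genes higher and 35.8% lower. The extremes were SLC7A11 at −2.43 (SE 0.335, adjusted p 1.82e-05) and FTL at 1.09 (SE 0.244, adjusted p 0.00118). TFRC was higher by 0.40 (adjusted p 0.00895) although its libraries overlapped, and AIFM2 lower by 1.08 on the log2 scale (adjusted p 0.0198), a call that was lost without teriflunomide replicate 1, combination replicate 1 or combination replicate 2. Under library size alone FTH1, LPCAT3 and TFRC were no longer called in this comparison (adjusted p 0.155, 0.254 and 0.0885). FTH1 (0.0598) and LPCAT3 (0.125) were also lost with no filter. FTH1, LPCAT3 and TFRC lost the call when only those groups were fitted (adjusted p 0.0559, 0.0854 and 0.0502), LPCAT3 also without combination replicate 3 (0.0687) and TFRC without combination replicate 2 (0.0508). TFRC was 0.20 on the log2 scale without teriflunomide replicate 3 and combination replicate 2 together (adjusted p 0.0564). The interaction, which asks whether the effect of teriflunomide differs with lurbinectedin present, was called in none of the 10, nor was any at an unadjusted p under 0.05, beside 0.258% of all genes called. The intervals were wide for the scarce genes, −0.23 to 1.97 around 0.87 for SLC7A11 and −1.61 to 0.61 around −0.50 for AIFM2. Without teriflunomide replicate 3 and combination replicate 2, FTL (−0.44, adjusted p 0.0108) and NCOA4 (−0.41, adjusted p 0.0195) were called. That fit called 1839 of 16945 genes in the interaction.

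The genes whose log2 CPM followed SLC7A11 most closely over the 12 libraries were RPL7AP45 (Pearson r 0.991), PEX3 (0.987) and JADE1 (0.986). For TFRC they were RPS26 (0.978), SART3 (0.966) and DDX18 (0.963). The 12 points share treatment groups, so these are descriptions of pattern across the same libraries.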

How the data were processed

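The deposited values are raw counts per gene in 12 libraries; per the submitters' processing notes, the authors used fastp 0.23.2, STAR 2.7.9 and featureCounts of the Subread package on hg38. Use of strand, multi-mapping reads and the annotation release are not given in the sources used here. All 37318 gene identifiers with the same version in GENCODE 29 had the same coordinates as there, and 60507 identifiers (99.77%) had a symbol. Libraries were grouped by the treatment label.

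In edgeR 4.0.16 (R 4.3.3), filterByExpr left 16683 genes, TMM set the scaling, and 1 quasi-likelihood model with robust dispersions was fitted to all 12 libraries (biological coefficient of variation 14.49%), with 6 contrasts. Benjamini-Hochberg adjustment ran over all genes tested. SEs came from the F statistic. Levels are CPM over effective library sizes, divided by exonic length where genes are compared. The fitting was tested on simulated counts in which few genes changed, equally up and down. That test does not bear on the scaling with lurbinectedin, where most genes were called.

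The 10 genes and the 6 pathway lists were chosen with earlier results of these data known. All 10 genes are named, with DHODH, NFE2L2 and ATF4, and from each list at most 3 genes by smallest p per contrast; exceptions are stated, and the values of some named genes and markers are left out here. Of 114 list genes, 113 were matched; TMEM189 was not. Alternatives were DESeq2 size factors, library size only, no mitochondrial genes, no filter, 1 CPM in 3 libraries, DESeq2 1.42.0, only the groups compared, a replicate block and each library left out; leaving out the pair of libraries with the highest mitochondrial shares was chosen after seeing the data.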

Additional observations from a re-analysis of the deposited data

How the results depend on the processing

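With TMM replaced by library size alone, the 10 genes gave 0 calls with teriflunomide (2 in the reported fit), 5 with lurbinectedin (8) and 5 with both drugs (9), and the list genes 4 with teriflunomide (10). Signs turned for TFRC (−0.023) and NFE2L2 (−0.132) with lurbinectedin, DHODH with both drugs (−0.137), LPCAT3 (0.006) and ATF4 (0.042) between combination and lurbinectedin, and GPX4 (0.087), FTH1 (0.108) and FTL (0.007) in the interaction. Without a filter, list genes gave 16 calls with teriflunomide and 2 between combination and lurbinectedin, and DHODH with both drugs was −0.026, GPX4 in the interaction 0.000 and FTH1 there 0.013. DESeq2 gave 20 and 4 list calls in those comparisons. Fitting only the groups compared gave 0 of the 10 genes and 4 list genes with teriflunomide, and 1 list gene between combination and lurbinectedin; the interaction needs all groups. All genes called with teriflunomide numbered 1002 in the reported fit, 265 under library size alone, 1800 with no filter, 1907 in DESeq2 and 283 with only those groups. Between combination and lurbinectedin they numbered 612 with no filter, 584 in DESeq2 and 94 with only those groups.

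The shared replicate numbers gave no sign of pairing between libraries. Same-numbered deviations correlated at −0.53 to 0.209, with 4 of 18 pairs over 0.1, and a library correlated best with its own number in 5 of 18. With 3 libraries per group, this check cannot exclude pairing. With the replicate block, teriflunomide gave 0 of the 10 genes, 6 list genes and 415 genes in all.

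Leaving out libraries, the added pair included, gave 0 to 4 calls of the 10 genes and 3 to 27 list calls with teriflunomide, 0 to 2 and 0 to 26 between combination and lurbinectedin, and 0 to 2 of the 10 genes in the interaction. Over all genes, the calls in these fits ran from 216 to 2757, from 0 to 3640 and from 2 to 1839, in that order. The highest counts came from leaving out teriflunomide replicate 3 and combination replicate 2 together. The list calls with teriflunomide were 17 at most with 1 library left out. Signs turned in these ranges. With teriflunomide they were −0.210 to 0.021 (GPX4), −0.090 to 0.002 (FTH1) and −0.471 to 0.085 (FTL); with both drugs −0.182 to 0.024 (TFRC) and −0.033 to 0.121 (DHODH). Between combination and lurbinectedin they were −0.267 to 0.587 (SLC7A11), −0.175 to 0.015 (NCOA4) and −0.073 to 0.045 (ATF4). In the interaction they were −0.115 to 0.187 (ACSL4), −0.115 to 0.023 (FTH1), −0.440 to 0.144 (FTL), −0.218 to 0.052 (GPX4) and −0.006 to 0.315 (TFRC). The causes were not tested. Depth limits AIFM2 and SLC7A11 most.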
